A study of Homo sapiens with 6 samples.

Results

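The trefoil factors and the goblet secretory proteins are a group of 10 genes, TFF1, TFF2, TFF3, SPINK4, SPINK1, FCGBP, AGR2, CLCA1, SPDEF and REG4. They were chosen by name, with earlier results of these data known. Every probe set annotated to 1 of them alone was taken, which gave 17 probe sets of 54613 on the array and 10 genes of 19775. Levels were compared in HT29 cells, a line of human colon adenocarcinoma cells, between 3 samples of cells resistant to 10 μM methotrexate (MTX), an antifolate drug, and 3 samples of sensitive cells. Resistant cells had been obtained by stepwise exposure to MTX and were kept in a medium that lacked glycine, hypoxanthine and thymidine and contained dialyzed serum, whereas sensitive cells were grown in Ham's F12 medium with fetal bovine serum. Resistance and medium therefore cannot be told apart. Total RNA of each sample was hybridized to 1 HG U133 PLUS 2.0 array, and no source used here says that the 3 samples of a group came from separate cultures, so the p-values rest on a spread between samples that may be technical alone.

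Goblet cells of the intestine make the mucus that covers the epithelium. They release gel-forming mucins together with small trefoil peptides, which resist digestion and aid the repair of the surface, and with other secreted proteins that enter the mucus layer. TFF1 and TFF2 belong mainly to the surface and neck cells of the stomach, and TFF3 to intestinal goblet cells. The ETS factor SPDEF drives the maturation of goblet cells in mice. HT29 cells are known for a capacity to take on absorptive or mucus-secreting features, and lines of HT29 cells that secrete mucus have been obtained elsewhere by selection with MTX.

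Deposited signals were scaled by division by the array median, so that the median probe set of an array has a scaled signal of 1. Median signals were 13.3 to 16.9 on the resistant and 14.2 to 15.4 on the sensitive arrays. Log2 scaled signals of the 26833 probe sets whose mean over the 6 arrays reached 1 were compared with limma and Benjamini-Hochberg adjustment, and a probe set was called at an adjusted p under 0.05. RNA integrity was read from ACTB and GAPDH, as the control signal at the 3' end divided by that at the 5' end. For ACTB this ratio was 1.172 to 1.295 in resistant and 1.123 to 1.166 in sensitive cells. Every resistant array thus lay above every sensitive array for ACTB. For GAPDH the ranges overlapped, at 0.9804 to 1.04 in resistant and 1.00 to 1.01 in sensitive cells. The part of RNA integrity in the results was not tested. Over the 11835 tested genes the median log2 fold change lay at -0.10, or at 0.02 after quantile normalization, so that calls of small changes depended on the scaling. The colon epithelial markers EPCAM, KRT18 and KRT8 had mean scaled signals of 235 to 714 in both groups, whereas CDX1 and CDX2, which encode intestinal transcription factors, and the antigen GPA33 lay under the filter. Of 14 non-epithelial markers 11 lay under the filter, among them PTPRC of leukocytes, CDH5 of endothelium and COL3A1 of fibroblasts. The endothelial marker PECAM1 passed it at means of 1.97 in resistant and 1.30 in sensitive cells, as did CD14 of monocytes at 0.463 in resistant and 2.41 in sensitive cells. COL1A1, another collagen gene, was the third to pass, at 11.8 ± 2.58 in resistant and 0.740 ± 0.239 in sensitive cells (SD, 3 arrays each).

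The group did not move as a whole. In resistant cells TFF1, TFF3 and SPINK4 were lower by more than 3-fold as a difference of mean log2 signals (for TFF1 the ratio of the mean signals was smaller, at 2.67), REG4 was lower by less, SPINK1 and SPDEF were modestly higher, and AGR2, TFF2 and FCGBP did not pass the test. CLCA1 was too dim to be tested. With each gene read at its brightest probe set, 4 of 9 tested genes were lower and 2 were higher, against 21.4% lower and 11.9% higher, or 33.3% in either direction, among all tested genes. With a change of at least 3-fold in mean log2 signals as well, 3 were lower and 0 higher, against 2.14% and 1.91%. SPINK4 and FCGBP had a mean scaled signal under 1 in resistant cells and passed the filter only through the sensitive arrays. The genes were also chosen with earlier results of these data known, so these counts are only a description of the genes measured. The arrays of the groups did not overlap in 6 of the 9 genes (46.2% among all genes), with the resistant arrays below in 4 (29.3% among all genes) and above in 2 (16.8%). At the level of probe sets, 4 of 16 were lower and 4 higher, against 19.5% and 9.52%. In bulk RNA, fewer cells that express a gene and less RNA of it per cell cannot be told apart.

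**Figure D1:**
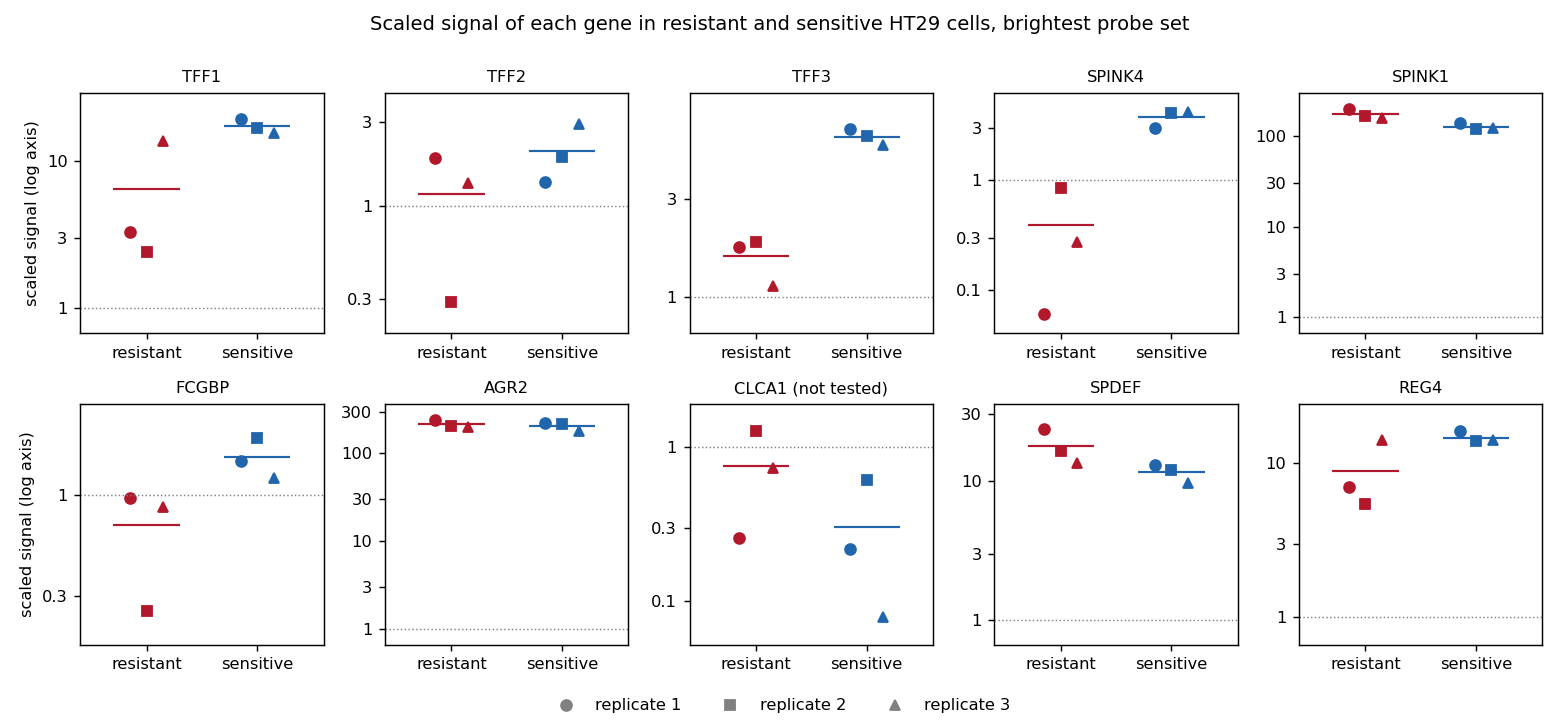
Scaled signal (1 is the array median, dotted line; log axis) of each gene at its brightest probe set on 3 resistant and 3 sensitive arrays, with a symbol for each replicate and a bar at the mean of the group. TFF3 and SPINK4 lie clearly below the sensitive arrays on all 3 resistant arrays, while TFF1 and REG4 are low on resistant replicates 1 and 2 and near the sensitive arrays on replicate 3.

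TFF3, the trefoil peptide of intestinal goblet cells, was the trefoil factor with the steadiest change. Scaled signals were 1.77, 1.87 and 1.14 in resistant cells, against 6.62, 6.12 and 5.53 in sensitive cells. All 3 resistant arrays lay far below the lowest sensitive array. The log2 fold change was -1.97 (standard error 0.24, adjusted p = 1.8e-06 from limma), and it lay between -2.10 and -1.74 when each array was left out in turn. A lower log2 fold change was found in 1.43% of the tested genes.

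TFF1, which is best known from the gastric surface epithelium and as an estrogen-responsive gene in breast cancer cells, fell unevenly. Its scaled signals were 3.26, 2.39 and 13.8 in resistant cells, against 19.6, 16.98 and 15.5 in sensitive cells. The groups did not overlap, but resistant replicate 3 lay just under the lowest sensitive array. The log2 fold change was -1.86 (standard error 0.37, adjusted p = 0.00068 from limma). Without resistant replicate 3 it was -2.63, and without resistant replicate 2 it was -1.36, which is under 3-fold. Whereas limma borrows part of each error from the other probe sets, a plain t-test uses the spread of 1 probe set alone. Such a test, named in the study's methods and run here without the study's error model and filter, ended the call (adjusted p = 0.20 with equal variances). It is called the methods' t-test below. Limma without its mean-variance trend ended the call as well (adjusted p = 0.072).

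TFF2, the trefoil factor of gastric neck cells, was measured near the array median. It measured 1.89, 0.288 and 1.36 in resistant cells, against 1.37, 1.91 and 2.92 in sensitive cells, as scaled signals. The groups overlapped, and the log2 fold change of -1.13 (standard error 0.53) did not pass (adjusted p = 0.12 from limma). This value rested on resistant replicate 2, without which it was -0.30, and without resistant replicate 1 it was -1.66 and passed (adjusted p = 0.047).

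The 3 trefoil genes are neighbours on chromosome 21, and the nearest tested gene on each side did not pass the test. ABCG1, a lipid exporter gene on the side of TFF3, was at a log2 fold change of 0.15 (adjusted p = 0.69 from limma). On the side of TFF1, TMPRSS3 and UBASH3A were too dim to be tested, and RSPH1 was at 0.05 (adjusted p = 0.87). SLC37A1, which encodes a transporter of sugar phosphate, lay next to RSPH1 among the tested genes and was lower at -1.41 (adjusted p = 3.4e-06), with scaled signals of 5.35, 5.58 and 4.27 in resistant cells, against 15.1, 12.95 and 12.3 in sensitive cells.

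SPINK4, a Kazal-type protease inhibitor gene of goblet cells, had the deepest fall of the 10 genes. Its scaled signals were 0.0602, 0.844 and 0.272 in resistant cells, against 3.01, 4.09 and 4.17 in sensitive cells. Every resistant array lay under the array median and every sensitive array above it. The log2 fold change was -3.95 (standard error 0.70, adjusted p = 0.00018 from limma), and 34 of 11835 genes had a lower one. Its size depends on resistant signals that set no firm level, since it was -3.27 with signals under 0.25 set to 0.25 and -1.80 as log2 of the scaled signal plus 1, and it passed in both. The methods' t-test ended the call (adjusted p = 0.10 with equal and 0.22 with unequal variances).

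SPINK1, the pancreatic secretory trypsin inhibitor that is also made by colon cancer cells, moved the other way. On the scaled signal it gave 199, 168 and 159 in resistant cells, against 139, 119 and 121 in sensitive cells. The groups did not overlap, with a gap between them that was smaller than the spread of the resistant arrays. The log2 fold change was 0.47 (standard error 0.11, adjusted p = 0.0029 from limma), or 0.57 relative to the median of all genes. It did not pass the methods' t-test (adjusted p = 0.089 with equal and 0.14 with unequal variances). Limma without its mean-variance trend ended the call of SPINK1 as well (adjusted p = 0.075).

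The bases before the start sites of SPINK4, REG4 and SPINK1 are shown because these secretory genes include the deepest fall of the group, a partial fall and a rise. Each line gives the 250 bases upstream of the RefSeq start site (GRCh38.p14), 5′ to 3′ on the strand of the gene, with matches to searched motifs in capitals.
SPINK4, chr9:33239917-33240166, plus strand: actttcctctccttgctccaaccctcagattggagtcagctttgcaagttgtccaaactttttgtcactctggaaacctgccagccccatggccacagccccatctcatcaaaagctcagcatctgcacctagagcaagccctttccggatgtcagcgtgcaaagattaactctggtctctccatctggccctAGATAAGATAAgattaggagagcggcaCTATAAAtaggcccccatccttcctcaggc
REG4, chr1:119811461-119811710, minus strand: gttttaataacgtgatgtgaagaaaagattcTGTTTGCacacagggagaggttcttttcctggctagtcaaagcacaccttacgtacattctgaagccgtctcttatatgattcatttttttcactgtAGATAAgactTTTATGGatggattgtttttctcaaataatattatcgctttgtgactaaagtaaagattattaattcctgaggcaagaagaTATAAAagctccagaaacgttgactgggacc
SPINK1, chr5:147831672-147831921, minus strand: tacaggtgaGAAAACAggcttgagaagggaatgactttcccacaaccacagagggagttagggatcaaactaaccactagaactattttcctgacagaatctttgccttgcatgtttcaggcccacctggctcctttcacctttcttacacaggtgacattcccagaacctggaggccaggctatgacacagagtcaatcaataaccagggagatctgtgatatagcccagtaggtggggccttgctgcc

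The motifs searched were TATAAA for the TATA box, on the strand of the gene only, and on both strands TGTTTNC for FOXA factors, AGATAA for GATA factors, GGAAGT for ETS factors, CAAAGTCCA for HNF4 factors and TTTATNG for CDX factors. In the same 250 bases of 35116 promoters, a TATA box match was found in 6.80%, a FOXA match in 15.5%, a GATA match in 9.17%, an ETS match in 19.5%, an HNF4 match in 0.325% and a CDX match in 8.93%. SPINK4 held a pair of GATA matches that overlap by 1 base, at positions -57 to -47 relative to the start site, and a TATA box match that lies within a CDX match on the other strand, so that these are not separate matches. REG4 held 1 match each for GATA, the TATA box, CDX and FOXA. SPINK1 held 1 match, to FOXA on the other strand. Promoter sequences were matched for 7 of the 10 genes, and of the other 4 of these AGR2 held a GATA match, CLCA1 an ETS match on the other strand, and SPDEF and FCGBP held no match in this window. A match is a description of letters and not of a bound site.

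REG4, a secreted C-type lectin of the regenerating family found in goblet and enteroendocrine cells, was, like TFF1, uneven over the resistant arrays. At its brightest probe set (1554436_a_at) scaled signals were 6.94, 5.39 and 14.1 in resistant cells, against 16.0, 13.8 and 14.0 in sensitive cells. Resistant replicate 3 lay within the range of the sensitive arrays and the other two resistant arrays lay under it. The log2 fold change was -0.85 (standard error 0.24, adjusted p = 0.011 from limma), but 8 of 16 alternatives ended the call, among them quantile normalization (adjusted p = 0.080). Leaving out resistant replicate 1 or 2 also ended it, at -0.74 and -0.56.
A separate probe set (223447_at) gave 7.72, 5.33 and 12.8 in resistant cells, against 12.7, 13.7 and 10.7 in sensitive cells. The same resistant array stood apart there, and the log2 fold change of -0.61 just missed the threshold (adjusted p = 0.052 from limma) and was -0.31 without resistant replicate 2 (adjusted p = 0.34). Without resistant replicate 3 both passed, at -1.25 (adjusted p = 1.0e-05) and -0.94 (adjusted p = 0.00080). The other probe set of REG4 (238984_at) lay near the array median, with a log2 fold change of 0.04 (adjusted p = 0.96).

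Resistant replicate 3 alone lay within the range of the sensitive arrays, with the other two resistant arrays both beyond the same side, in 1798 of 26833 tested probe sets, or 6.70%. The same held of resistant replicate 1 in 9.03% and of resistant replicate 2 in 4.81%. Among the probe sets of the 10 genes, replicate 3 stood apart in this way at both brighter probe sets of REG4, replicate 1 at TFF2 and replicate 2 at the dimmest probe set of SPDEF. The ACTB 3' to 5' ratio of resistant replicate 3 was 1.17, against 1.30 and 1.29 on resistant replicates 1 and 2, whereas for GAPDH it was 1.04 on replicate 3, against 0.9804 and 1.04.

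**Figure D2:**
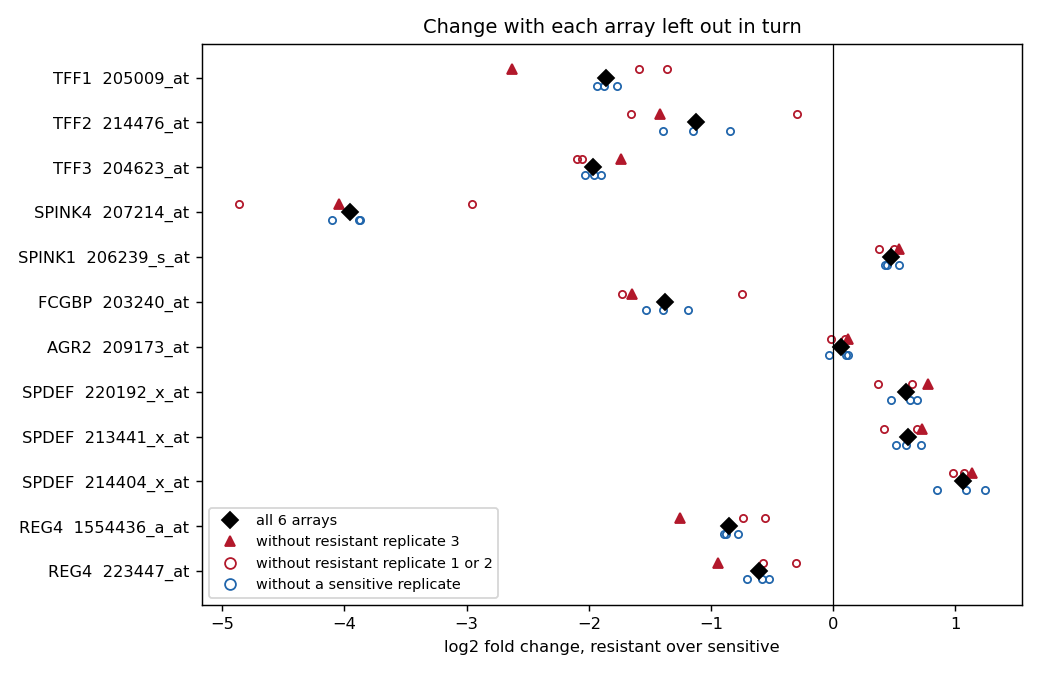
Change on the log2 scale (resistant over sensitive) of each gene at its brightest tested probe set, and at 213441_x_at and 214404_x_at of SPDEF and 223447_at of REG4, with all 6 arrays (diamonds) and with each array left out in turn (circles and triangles). Leaving out resistant replicate 3 moved TFF1 to -2.63 and REG4 to -1.25, and no array left out turned the sign of any of these probe sets other than that of AGR2.

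SPDEF, the ETS factor of goblet cell maturation, was the only transcription factor of the group and was higher in resistant cells at 3 of its 5 probe sets. At the brightest (220192_x_at) scaled signals were 23.6, 16.2 and 13.4 in resistant cells, against 12.9, 11.96 and 9.63 in sensitive cells. The lowest resistant array lay just above the highest sensitive one. The log2 fold change was 0.60 (standard error 0.19, adjusted p = 0.024 from limma), and 7 of 16 alternatives ended the call (adjusted p of up to 0.28). Among these were the fits without resistant replicate 1, resistant replicate 2 and sensitive replicate 3, whose log2 fold changes were 0.37, 0.64 and 0.47.
At 214404_x_at the scaled signals were 19.2, 17.1 and 15.6 in resistant cells, against 10.7, 6.18 and 8.57 in sensitive cells. Here the groups lay well apart, and the log2 fold change was 1.06 (standard error 0.19, adjusted p = 0.00022 from limma). The 213441_x_at probe set gave 0.61 (adjusted p = 0.017), which was 0.41, 0.59 and 0.51 and no longer passed without resistant replicate 1, sensitive replicate 2 and sensitive replicate 3, and both versions of the methods' t-test ended the calls of all 3. The 2 dimmer probe sets did not pass, at -0.11 for 214403_x_at (adjusted p = 0.82) and 1.09 for 213442_x_at (adjusted p = 0.16). The mean scaled signal of 213442_x_at was 0.645 in sensitive cells, so it passed the filter only through the resistant arrays. All 5 probe sets of SPDEF are of the kind whose probes can also match other transcripts, so the level of SPDEF is uncertain.

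AGR2, an endoplasmic reticulum protein of the disulfide isomerase family that is needed for mucin production in mice, showed no difference beyond the spread of the arrays. At its brightest probe set (209173_at) scaled signals were 243, 207 and 199 in resistant cells, against 224, 218 and 180 in sensitive cells. The ranges overlapped, and limma put the log2 fold change at 0.06 (standard error 0.11, adjusted p = 0.70). The dimmer probe set (228969_at) gave 0.15 (standard error 0.21, adjusted p = 0.65). Its sign turned without resistant replicate 1, to -0.02, so these data give no direction for AGR2.

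FCGBP, a large protein of the intestinal mucus that binds TFF3, was close to the array median in sensitive cells. FCGBP measured 0.970, 0.25 and 0.870 in resistant cells, against 1.5, 1.99 and 1.23 in sensitive cells. The groups did not overlap, but the log2 fold change of -1.37 (standard error 0.58) did not pass (adjusted p = 0.078 from limma). Without resistant replicate 2 it was -0.75 (adjusted p = 0.25). It passed without resistant replicate 1 (adjusted p = 0.049), without resistant replicate 3 (adjusted p = 0.049) and as log2 of the scaled signal plus 1 (adjusted p = 0.047).
CLCA1, a secreted metalloprotease that goblet cells release into the mucus, had scaled signals of 0.256, 1.28 and 0.734 in resistant cells, against 0.218, 0.613 and 0.0779 in sensitive cells. The groups overlapped around and under the array median. Without the filter on dim signals its log2 fold change was 1.51 (standard error 0.93, adjusted p = 0.39 from limma).

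**Figure D3:**
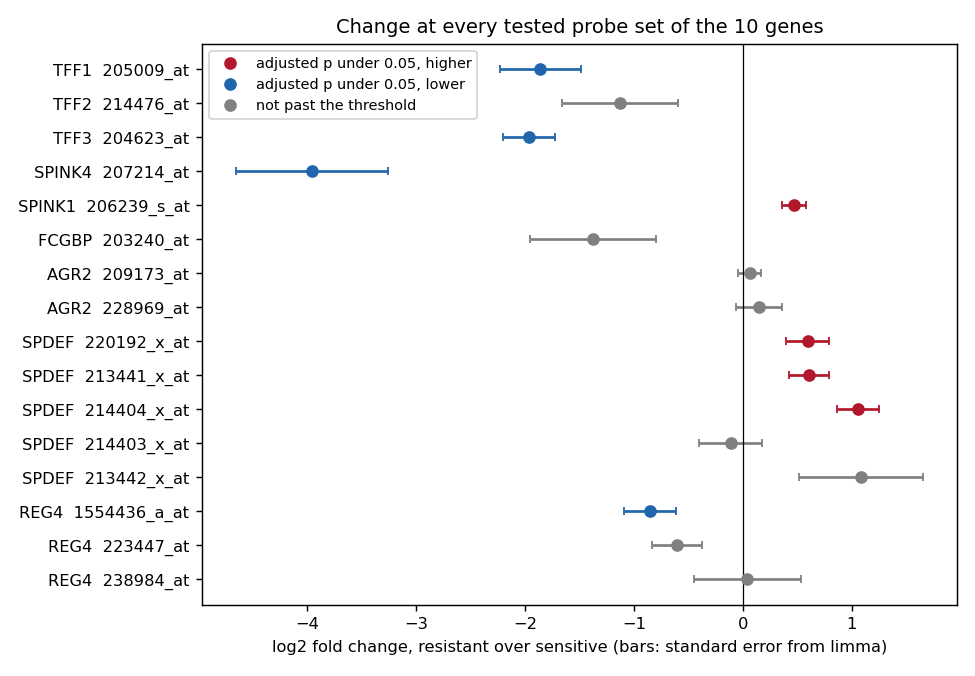
Log2 fold change, resistant over sensitive cells, at each of the 16 tested probe sets, with bars that span 1 standard error from limma on each side and colours for the call at an adjusted p under 0.05. SPINK4 lies at -3.95 and TFF3 at -1.97, SPINK1 and 3 probe sets of SPDEF lie to the right of 0, and the probe sets of AGR2 lie near 0.

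**Figure D4:**
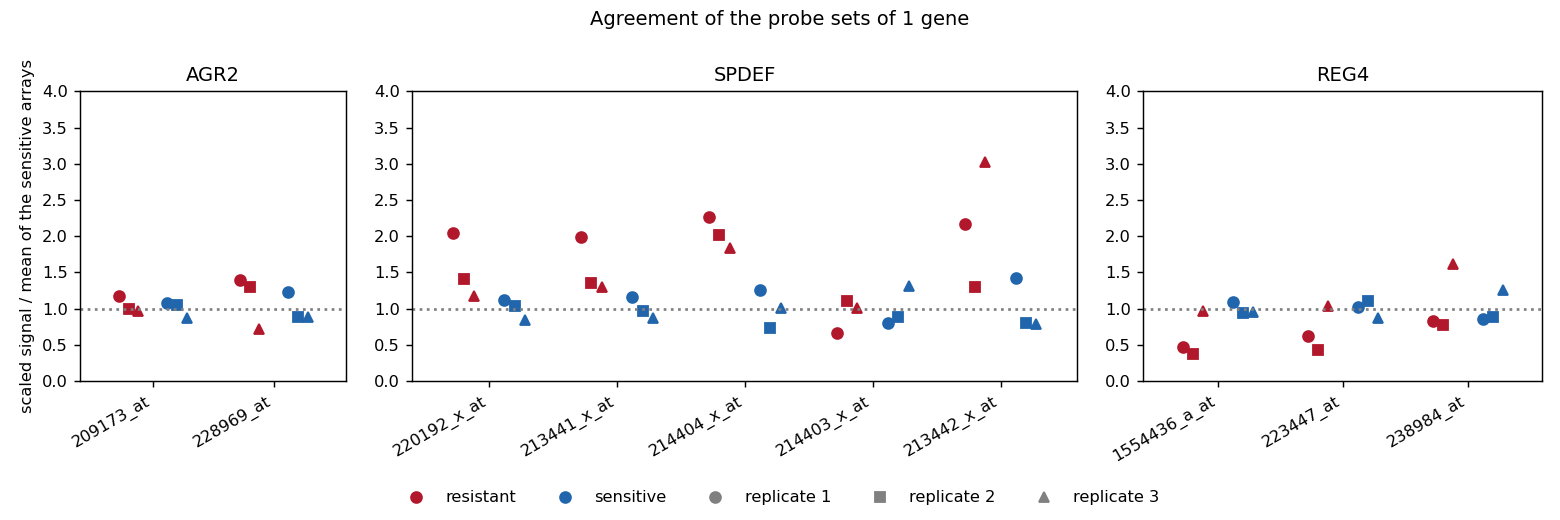
Scaled signal divided by the mean of the 3 sensitive arrays, for every probe set of AGR2, SPDEF and REG4, ordered from the brightest to the dimmest, with a symbol for each replicate. The 3 brighter probe sets of SPDEF lie above the dotted line at 1 on all resistant arrays, and both brighter probe sets of REG4 lie clearly below it on resistant replicates 1 and 2 only.

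The genes whose profile over the 6 arrays lay closest to that of a trefoil factor were found by the root mean square distance between log2 scaled signals, each centred on the mean of its gene. For TFF3 they were MYB at a distance of 0.08, OSGIN2 at 0.09 and IRF9 at 0.11, against a median of 0.99 over 11834 genes. MYB, which encodes a transcription factor, had scaled signals of 9.14, 9.42 and 6.46 in resistant cells, against 38.4, 31.6 and 27.6 in sensitive cells. As for TFF3, the third resistant array was the lowest.
For TFF1 the closest were LINC00973 at 0.31, ZNF155 at 0.34 and PON1 at 0.39, against a median of 1.21. LINC00973 had scaled signals of 1.06, 0.763 and 3.53 in resistant cells, against 4.13, 3.08 and 4.37 in sensitive cells. Resistant replicate 3 lay among the sensitive arrays of LINC00973, whereas for TFF1 it lay just under them. For TFF2 they were APOC1 at 0.28, TTC16 at 0.30 and AIFM3 at 0.33, against a median of 1.02, all of them low on resistant replicate 2. All these genes were picked by closeness over the same 6 arrays, so such shared features follow from the choice. ZNF155, PON1 and TTC16 had a mean scaled signal under 1 in resistant cells and passed the filter only through the sensitive arrays.

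Gel-forming mucins are the bulk of goblet cell mucus. The mucin list, which also holds membrane mucins, had calls in both directions. Of 14 mucin genes with a probe set, 8 lay under the filter, and of the other 6 tested, 2 were higher and 3 lower. Among all tested genes 11.9% were higher and 21.4% lower. MUC2, the gel-forming mucin of intestinal goblet cells, had scaled signals of 0.977, 0.856 and 0.621 in resistant cells, against 1.21, 0.727 and 1.75 in sensitive cells. It lay near the array median in both groups and did not pass (log2 fold change -0.52, adjusted p = 0.50 from limma). Its mean was 0.818 in resistant cells, so MUC2 passed the filter only through the sensitive arrays. MUC5AC, the gel-forming mucin of the gastric surface, was higher at 0.78 (adjusted p = 0.0065) at its brightest probe set, and its 3 others gave -0.03, 2.47 and -0.23. Membrane mucins went both ways, with MUC1 at 2.73 (adjusted p = 1.3e-07) and MUC13 at -2.64 (adjusted p = 3.7e-11). MUC3A was at -0.91, and 9 of 15 alternatives took this call away (adjusted p of up to 0.31), among them the fits without resistant replicate 3, sensitive replicate 2 or sensitive replicate 3.

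Of 31 tested genes for other goblet cell products and enzymes of mucin glycosylation, 6 were higher, 9 lower and 16 did not pass. The shares among all tested genes were 11.9% higher and 21.4% lower. The median log2 fold change of the list was -0.19, against -0.10 for all tested genes. After quantile normalization 9 genes of the list were higher and 8 lower. The largest fall was that of TMPRSS2, which encodes a membrane serine protease. Its scaled signals were 0.677, 0.263 and 0.154 in resistant cells, against 9, 7.63 and 9.56 in sensitive cells; its log2 fold change was -4.85 (adjusted p of 1.0e-08), but its resistant signals set no firm level and it lay between -5.43 and -2.85 over the alternatives. GCNT1, an enzyme that branches O-glycans, was at -1.74 and FAM3D, a secreted gut protein, at -1.71. ERN2, the stress sensor IRE1β of mucus-secreting epithelium, was higher at 1.52 (adjusted p = 1.1e-06), with 16.3, 15.1 and 13 in resistant cells, against 5.78, 5.36 and 4.36 in sensitive cells. The 3 sensitive arrays of ERN2 lay well under all resistant arrays. Like those of SPDEF, the probe set of ERN2 is of the kind that can also match other transcripts, so its level is uncertain. Other higher genes of the list were CAPN8 at 0.96, RAP1GAP at 0.63, FFAR4 at 0.60, AGR3, a close relative of AGR2, at 0.56, and TSPAN13 at 0.33. The other lower genes were ST3GAL1 at -1.52, CREB3L1 at -0.84, ZG16B at -0.70, GALNT7 at -0.60, C1GALT1C1 at -0.60 and GCNT3 at -0.32, where the groups overlapped. Enzymes of mucin glycosylation were found both among the lower genes and among those that did not pass. The genes named beyond the 4 of largest change were named after their values were seen, to complete the called members of the list.

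Among transcription factors and Notch genes of secretory fate, 2 of 15 tested genes were higher and 5 lower, with a median of -0.31. The shares of all tested genes, 11.9% higher and 21.4% lower, are to be set beside this list and every list below. ATOH1, the factor that opens secretory fate, lay under the filter, with scaled signals of 0.41 on average in resistant and 1.22 in sensitive cells. KLF4, a factor of goblet cell differentiation, was at -0.64 (adjusted p = 0.0074 from limma), with 20.1, 14.9 and 25.4 in resistant cells, against 32.6, 30.01 and 29.7 in sensitive cells. Its resistant arrays all lay below, with replicate 3 again the nearest to the sensitive ones. HNF4G, a nuclear receptor of the intestine, was lower at -1.11. FOXA2, a forkhead factor of endodermal epithelium, was higher at 0.63. Its relative FOXA1 was lower at -0.55 (adjusted p = 0.039 from limma), with groups that overlapped, and FOXA3 did not pass at 0.25. The Notch ligand JAG1 was higher at 0.62, but it overlapped between the groups and did not pass without resistant replicate 3.
Of 26 tested genes of protein folding and transport in the endoplasmic reticulum, 5 were higher and 4 lower, with a median of 0.10. The count was 13 higher and 4 lower after quantile normalization, so it depended on the scaling. SSR4, a subunit of the translocon-associated complex, was at -1.59 and the disulfide isomerase PDIA4 at -0.76, while SEC24D, a coat protein of transport vesicles, was at 1.22 and HERPUD1, of protein degradation at the endoplasmic reticulum, at 0.76. Of 5 tested genes for receptors and partners of trefoil peptides and REG4, 2 were higher and 0 lower, namely the chemokine receptor CXCR4 at 0.53 (adjusted p = 0.0062) and ERBB2 at 0.50 (adjusted p = 0.046), and the call of ERBB2 was lost under 9 of 16 alternatives (adjusted p of up to 0.30), including every array left out but resistant replicate 3, and that of CXCR4 without sensitive replicate 2.

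**Figure D5:**
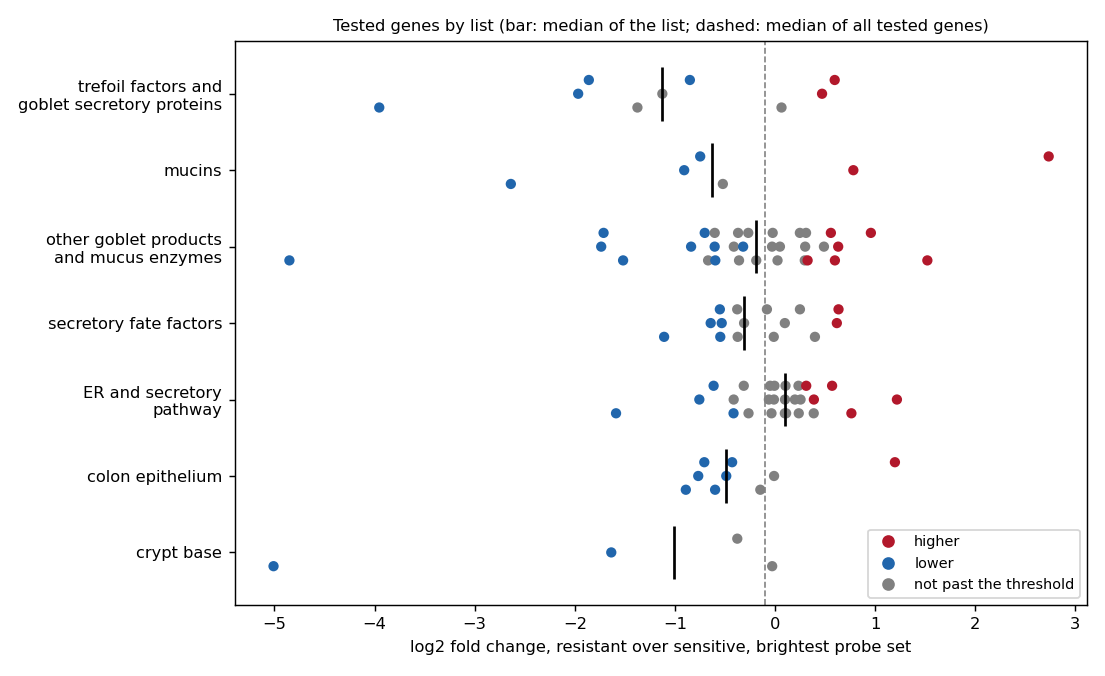
Change on the log2 scale (resistant over sensitive) of the tested genes of 7 lists at their brightest probe set, with 1 dot a gene, a bar at the median of the list and a dashed line at the median of all tested genes (-0.10). Dots are coloured by the call at an adjusted p under 0.05, and higher and lower genes stand side by side in the lists of trefoil factors, mucins and other goblet products.

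Markers of enteroendocrine, absorptive, Paneth and tuft cells lay mostly under the filter, whereas most gastric and crypt base markers passed it. Under the filter lay 6 of 10 Paneth, 4 of 6 tuft, 5 of 13 gastric and 2 of 6 crypt base markers. Some markers were bright in both groups. Mean scaled signals in resistant and sensitive cells were 398 and 432 for LYZ, 164 and 245 for KRT20 and 74.3 and 220 for MMP7. For ANXA10 of the gastric list they were 116 and 108. All 12 enteroendocrine genes with a probe set lay under the filter, with a summed scaled signal of 5.31 to 6.77 in resistant and 4.39 to 6.14 in sensitive cells, and the mean of chromogranin A (CHGA) was 0.908 in resistant and 0.804 in sensitive cells. Of 19 absorptive cell markers, 13 lay under the filter, 2 were higher (DPP4 at 0.55, CA2 at 0.48) and 2 lower (KRT20 at -0.60, VIL1 at -0.49), of which VIL1 did not pass after quantile normalization (adjusted p = 0.051) and the call of CA2 was ended by 8 of 16 alternatives. Of 4 tested Paneth cell markers 0 were higher and 2 lower (PRSS2 at -1.88, MMP7 at -1.62), and LYZ, which encodes lysozyme, did not pass at -0.12. Of 8 tested gastric markers, 2 were higher and 1 lower. Those higher were VSIG1, an adhesion molecule of the stomach, at 2.03 (adjusted p = 0.0029, 1.05 to 2.29 over the alternatives), and MUC5AC, and the lower one was TFF1.
Of 4 tested markers of crypt base cells 0 were higher and 2 lower. They were the receptor LGR5, with scaled signals of 0.293, 0.213 and 0.0651 in resistant cells, against 4.75, 5.07 and 5.63 in sensitive cells (log2 fold change -5.01, adjusted p = 1.7e-06 from limma), and ASCL2 at -1.64. The resistant signals of LGR5 set no firm level, and its change lay between -5.45 and -2.37 over the alternatives. Of 2 tested tuft cell markers, ALOX5 was higher at 0.93. Of 9 tested colon epithelial genes, 1 was higher (CDH17 at 1.197) and 6 were lower, with KRT8 at -0.77, LGALS4 at -0.71 and CEACAM5 at -0.89, and 8 of 15 alternatives ended the call of CDH17 and 6 of 15 that of CEACAM5. The summed scaled signal of this list was 1598 to 1798 in resistant and 2062 to 2274 in sensitive cells. Of 3 tested non-epithelial markers, COL1A1 was higher at 4.03 (2.87 to 4.20 over the alternatives), CD14 lower at -2.81 (-3.44 to -1.22) and PECAM1 did not pass at 0.61 (adjusted p = 0.18). COL1A1 and CD14, like VSIG1, TMPRSS2 and LGR5, had a mean scaled signal under 1 in 1 group and passed the filter only through the other. The part of these markers in the changes of the 10 genes was not tested.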

How the data were processed

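The deposited values were intensities on a linear scale, computed by the authors with MAS5, 1 for each probe set and array (3 resistant and 3 sensitive samples). No version of MAS5 was found in the labels or the methods. In the study the values then went into GeneSpring, where normalization began with division by the median of the array, and none of its output was used here. Of 54675 probe sets, 62 controls were dropped. The platform annotation tied 41091 of the rest to 1 gene, and 41043 had their symbol updated by Entrez identifier (RefSeq, GRCh38.p14).

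After division by the array median and a floor of 0.01, log2 values were analysed in limma 3.58.1 (R 4.3.3) using lmFit and eBayes, with the prior variance following the mean signal. The test took in probe sets whose mean scaled signal was 1 or more, and p-values were adjusted by Benjamini-Hochberg over all 26833 of them. Each gene was read at its brightest probe set, except where others are named. The probe sets of ERN2, PRSS2, MUC3A, JAG1, KRT8, KRT18 and APOC1 can also match other transcripts, as can a dimmer one of MUC5AC. Only probe sets ending in _x_at are listed here. Those ending in _s_at, among them the ones of SPINK1, MUC1 and MUC13, were not checked for matches to other transcripts. Detection calls were not used, so signals under 1 set no firm level, and the number of arrays limits the precision. Fold changes are mean log2 in resistant minus mean log2 in sensitive cells. Alternatives changed the scaling, the treatment of low signals, the filter, the test or the trend, added a replicate block, or left out 1 array.

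By the naming rule the text gives all 10 genes, up to 4 called genes of largest change in each list and the 3 closest profiles of each trefoil factor. Neighbours of the TFF genes, identity markers, FOXA1, FOXA3 and the remaining called goblet genes were named outside it. The 10 genes and the lists were chosen with earlier results of these data known. Not every listed gene is given. Figures were made with matplotlib 3.10.9.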

Additional observations from a re-analysis of the deposited data

How the results depend on the processing

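Of 249 values of single probe sets under an alternative, 199 kept their direction and side of the threshold, 32 lost the call, 10 gained it and 8 changed sign. The sign changed only at probe sets that did not pass. With each array left out in turn, AGR2 lay between -0.035 and 0.12 at its brighter probe set, and was at -0.021 without resistant replicate 1 and -0.035 without sensitive replicate 3. At the other it lay between -0.024 (without resistant replicate 1) and 0.45. SPDEF at 214403_x_at lay between -0.26 and 0.12, and was at 0.12 without resistant replicate 1 and 0.11 without sensitive replicate 3. REG4 at 238984_at lay between -0.30 and 0.24, and was at -0.30, -0.056 and -0.032 without resistant replicate 3, sensitive replicate 1 and sensitive replicate 2.

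Probe sets of the 10 genes called higher numbered 4, and genes 2, with 4 probe sets and 4 genes lower. The methods' t-test gave 0 probe sets and 0 genes higher and 1 and 1 lower (TFF3) with equal variances, where 826 probe sets on the array were called higher and 1879 lower. With unequal variances it gave 0 in each case, against 81 and 136 on the array. That test takes its error from the 6 arrays of a probe set alone. Before adjustment, at a p under 0.05, the equal-variance version had 2 probe sets of the 10 genes higher and 2 lower, and the unequal-variance version 2 and 1. Without the mean-variance trend 1 probe set and 0 genes were higher and 2 and 2 lower, and 3366 on the array were lower. Without the filter 1 gene was higher (SPINK1), and with the filter raised to 4 there were 2 lower, since TFF3 and SPINK4 were then not tested. After quantile normalization 4176 probe sets on the array were higher and 4324 lower, so that 50.9% of calls were lower, against 67.2%. The secretory pathway list then had 13 genes higher, the colon epithelium list 0 higher and the absorptive list 1 lower.

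With each array left out in turn, 2 to 4 probe sets of the 10 genes and 1 to 2 genes were higher, and 3 to 6 probe sets and 3 to 5 genes were lower. On the array 1917 to 2513 probe sets were higher and 3774 to 6498 lower. The count of 2 higher probe sets arose without resistant replicate 1 and without sensitive replicate 3, and that of 1 higher gene also without resistant replicate 2. With the replicate number as a block 4 probe sets and 2 genes were higher and 5 and 4 lower, and 3076 and 6400 on the array. Deviations from the group means correlated at 0.14, 0.01 and 0.08 between arrays of the same number, against -0.11 to 0.03 between arrays of different numbers. The values of 0.14 and 0.08 were thus the highest of all. These correlations were weak, and the main fit did not pair the arrays.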
